A study of Homo sapiens with 10 samples.

Results

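TXNIP, its arrestin-domain relatives ARRDC2, ARRDC3 and ARRDC4, and the transcription factors MLX and MLXIP were followed in HaCaT keratinocytes given LBP, radiation or both. These 6 genes were selected by name, as part of a family and its glucose-sensing regulators, after results of these data were known. The relatives ARRDC1 and ARRDC5 were not among the 6. The difference between LBP and vehicle was part of that choice, so the values of the 6 genes are a description. Their intervals, and whether each was called, are given as their place in the fit across all features, and nothing is supported with them. They are 6 of 22003 features in the count table, and all 6 were among the 14799 features that passed the filter on low counts.

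HaCaT is an immortalised line of human epidermal keratinocytes, wild type in genotype per the labels, which give its tissue as mucosa. LBP is a polysaccharide-glycoprotein preparation from Lycium barbarum, the goji plant. Vehicle cells (n = 2 libraries) received vehicle for 24 h and no radiation, and LBP cells (n = 2) received LBP for 24 h and no radiation. Irradiated vehicle cells (n = 3) and irradiated LBP cells (n = 3) received the same pretreatments followed by 12 Gy, with RNA taken 3 h later. All groups are 1 cell line in the same medium. The labels call the libraries of a group repeated experiments without naming separate cultures, so p-values and errors cover the variation among these libraries alone, and that variation may be technical.

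Thioredoxin-interacting protein (TXNIP) binds and inhibits reduced thioredoxin and promotes internalisation of glucose transporters. It belongs to the alpha-arrestins, adaptor proteins that link membrane cargo to ubiquitin ligases of the NEDD4 family. Transcription of TXNIP and ARRDC4 is known to respond to glucose-derived metabolites through MLXIP, also called MondoA, which binds DNA together with MLX at pairs of E-box-like sites. In epidermis TXNIP is known for its link to vitamin D signalling and to growth arrest.

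Depth ran from 31830506 to 62986831 counts per library, and repeats of a group differed beyond counting error. The 8 keratinocyte markers summed to between 3964 and 5181 FPKM (fragments scaled by gene length and library size) over the libraries. By group the sum was 4165 to 4468 with vehicle, 4986 to 5181 with LBP, 3964 to 4673 with irradiated vehicle and 4669 to 4975 with irradiated LBP, and its part in the results was not tested. Of these 8 genes only TP63 was called with LBP, in irradiated cells (0.41; edgeR adjusted p = 0.023). Marker sums stayed at or below 1.48 FPKM for fibroblasts, 1.94 for melanocytes, 1.502 for leukocytes, 0.884 for endothelium and 0.0942 for adipocytes. DCN, TYR, PECAM1, ADIPOQ and LEP were listed at 0 in all libraries. MITF, a melanocyte marker, was called lower in irradiated LBP cells (-0.46; edgeR adjusted p = 0.041). Leaving out any library but irradiated LBP replicate 2 ended that call (-0.51 to -0.37), and without irradiated vehicle replicate 1, 2 or 3 or irradiated LBP replicate 1 that of TP63 ended (0.37 to 0.43). PMEL, the other tested melanocyte marker, lay the other way in irradiated LBP cells, at 0.27 ± 0.26, and was not called. In bulk RNA such as this, fewer cells of a state and less RNA per cell cannot be told apart. Levels below are CPM, counts scaled to the library size after TMM normalisation. A gene is called where edgeR's quasi-likelihood test, adjusted over the 14799 features, gave an adjusted p under 0.05.

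The 6 genes lie apart in the genome (GENCODE 29 on GRCh38) and all are protein coding. TXNIP (ENSG00000265972) spans chr1:145992435-145996600 on the minus strand. ARRDC4 (ENSG00000140450) spans chr15:97960698-97973838 on the plus strand. ARRDC3 (ENSG00000113369) spans chr5:91368724-91383359 on the minus strand and overlaps ARRDC3-AS1 on the other strand. ARRDC2 (ENSG00000105643) spans chr19:18001132-18014102 on the plus strand. MLX (ENSG00000108788) spans chr17:42567068-42573239 on the plus strand, with its 3′ end overlapping PSMC3IP on the other strand. MLXIP (ENSG00000175727) spans chr12:122078722-122147347 on the plus strand. The strand setting of the counting is not given in the sources used here, so reads of ARRDC3 and ARRDC3-AS1, and of MLX and PSMC3IP, cannot be told apart in the overlaps.

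Upstream stretches of TXNIP and ARRDC4 are printed because both genes were called higher with LBP in both settings, and that of ARRDC3 because it was called in irradiated cells alone. They are from RefSeq on GRCh38.p14, read 5′ to 3′ on the strand of the gene, and stop before the exon. Capitals mark matches to the 5 motifs searched. The stretches are chr1:145996601-145996829 (minus) for TXNIP, chr15:97960453-97960697 (plus) for ARRDC4 and chr5:91383360-91383567 (minus) for ARRDC3.
TXNIP: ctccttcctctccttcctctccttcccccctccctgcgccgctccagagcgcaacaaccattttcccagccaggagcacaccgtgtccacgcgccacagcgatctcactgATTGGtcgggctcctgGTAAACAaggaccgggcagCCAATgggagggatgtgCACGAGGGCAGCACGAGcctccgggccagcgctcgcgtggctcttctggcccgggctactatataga
ARRDC4: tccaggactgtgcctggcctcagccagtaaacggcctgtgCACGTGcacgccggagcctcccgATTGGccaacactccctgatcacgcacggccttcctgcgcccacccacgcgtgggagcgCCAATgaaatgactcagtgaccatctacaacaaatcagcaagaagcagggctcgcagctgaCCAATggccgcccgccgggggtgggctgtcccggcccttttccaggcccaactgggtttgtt
ARRDC3: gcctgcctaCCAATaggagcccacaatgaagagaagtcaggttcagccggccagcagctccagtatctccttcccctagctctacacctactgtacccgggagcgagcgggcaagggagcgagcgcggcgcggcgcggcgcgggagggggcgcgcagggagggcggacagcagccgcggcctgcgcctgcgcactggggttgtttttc

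The motifs were chosen after these sequences and the values were seen, and both strands were searched from 250 bases before to 50 after each start. They were the E-box CACGTG, paired E-box-like sites (2 copies of CACGNG separated by 5 bases), the CCAAT box CCAAT, a forkhead-like motif GTAAACA and an antioxidant response element core TGACNNNGC. The paired sites were searched with both copies in the same orientation, and pairs in opposite orientations were not searched. All 6 genes matched the RefSeq table by symbol, with 9 start windows in all. TXNIP held the paired sites, CACGAGGGCAGCACGAG, beginning at position -88 from the start, at chr1:145996651-145996667. It also held CCAAT boxes at -140 and -105 and the forkhead-like motif at -124. ARRDC4 held no paired sites, but held an E-box at -210 and CCAAT boxes at -187, -128 and -67. ARRDC3 held a CCAAT box at -241 from its upstream start and a forkhead-like match at -29 from its other start. MLX held an E-box at -50, a CCAAT box at -66 and an antioxidant core 26 bases after the start. ARRDC2 held an antioxidant core at -68 from its upstream start and a CCAAT box at -93 from its other start, and MLXIP held a CCAAT box at -76. ARRDC2 and MLXIP held neither an E-box nor the paired sites.

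Of 35116 start windows in the RefSeq table, 7.26% held an E-box, 34.6% a CCAAT box, 13.3% the antioxidant core and 3.42% the forkhead-like motif. The paired sites were in 0.057%, which is 20 windows of 20 genes. Of these 20 genes 15 were tested, and 2 were called in each LBP comparison, TXNIP and P4HA1. Over all tested features 0.804% were called without radiation and 4.36% with it. TXNIP was chosen with these values known, and the motif after its sequence was seen, so nothing is read from this count. P4HA1, a collagen prolyl hydroxylase subunit, differed by 0.52 ± 0.10 (log2, SE) without radiation and 0.36 ± 0.08 with it. Its edgeR adjusted p was 0.031 in both, and its calls were not followed under the alternative settings given below. The median log2 difference of the 15 was 0.052 and -0.0131. A match is a run of letters and not evidence of binding.

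**Figure D1:**
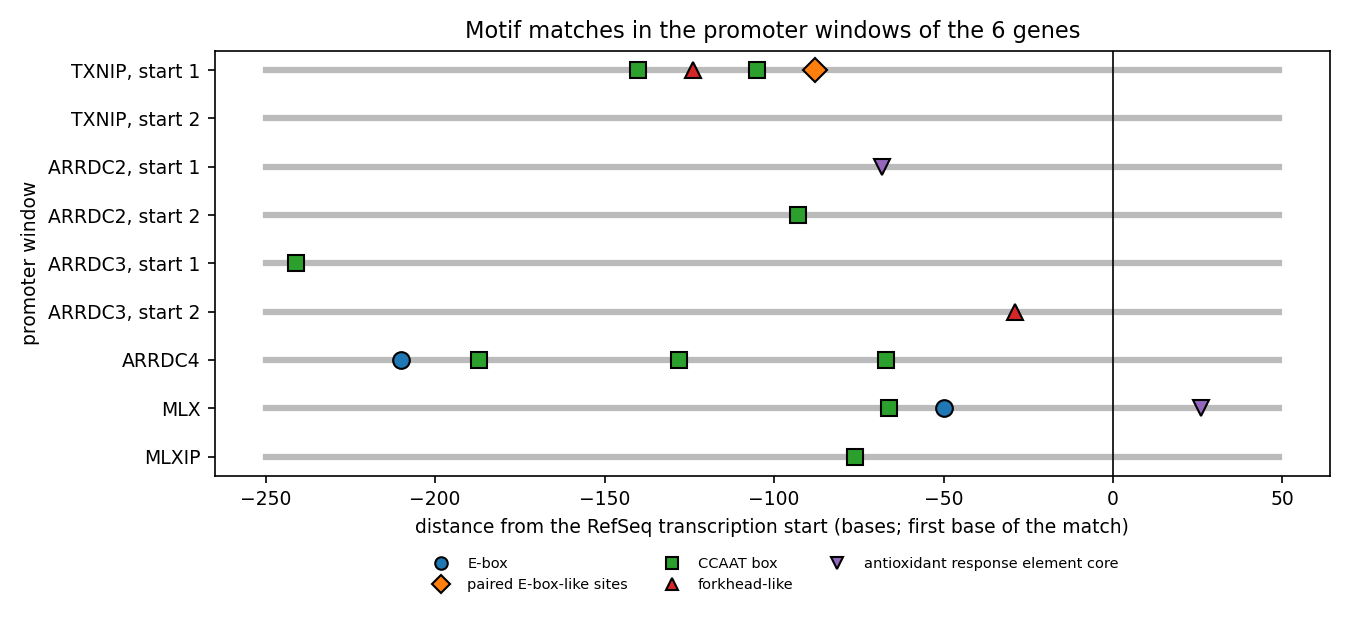
Motif matches in the start windows of the 6 genes, by distance from the transcription start in bases (x axis), 1 row per window. The paired E-box-like sites appear in the upstream TXNIP window alone among the 9 windows.

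LBP cells held more TXNIP RNA than vehicle cells, with or without radiation. TXNIP was at 40.0 and 35.4 CPM in the vehicle libraries and at 70.5 and 71.5 CPM in the LBP libraries. With radiation it stood at 29.5, 34.8 and 35.7 CPM with vehicle and at 71.4, 89.9 and 65.6 CPM with LBP. Every LBP library therefore lay above every vehicle library in both settings. The log2 difference was 0.91 ± 0.14 (SE; 95% interval 0.61 to 1.22; 1.89-fold) without radiation. It was 1.18 ± 0.11 (0.93 to 1.43; 2.27-fold) with radiation.

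ARRDC4, the relative that shares TXNIP's effect on glucose uptake, was likewise higher with LBP in both settings. It was at 27.8 and 31.3 CPM with vehicle and at 54.6 and 50.9 CPM with LBP. Irradiated cells held it at 30.5, 36.0 and 33.5 CPM with vehicle and at 73.6, 58.5 and 51.4 CPM with LBP. No LBP library overlapped a vehicle library. The log2 difference was 0.83 ± 0.15 (0.52 to 1.15; 1.78-fold) without radiation and 0.88 ± 0.12 (0.62 to 1.13; 1.84-fold) with it. Within irradiated LBP cells the library with most TXNIP was replicate 2 and that with most ARRDC4 was replicate 1.

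**Figure D2:**
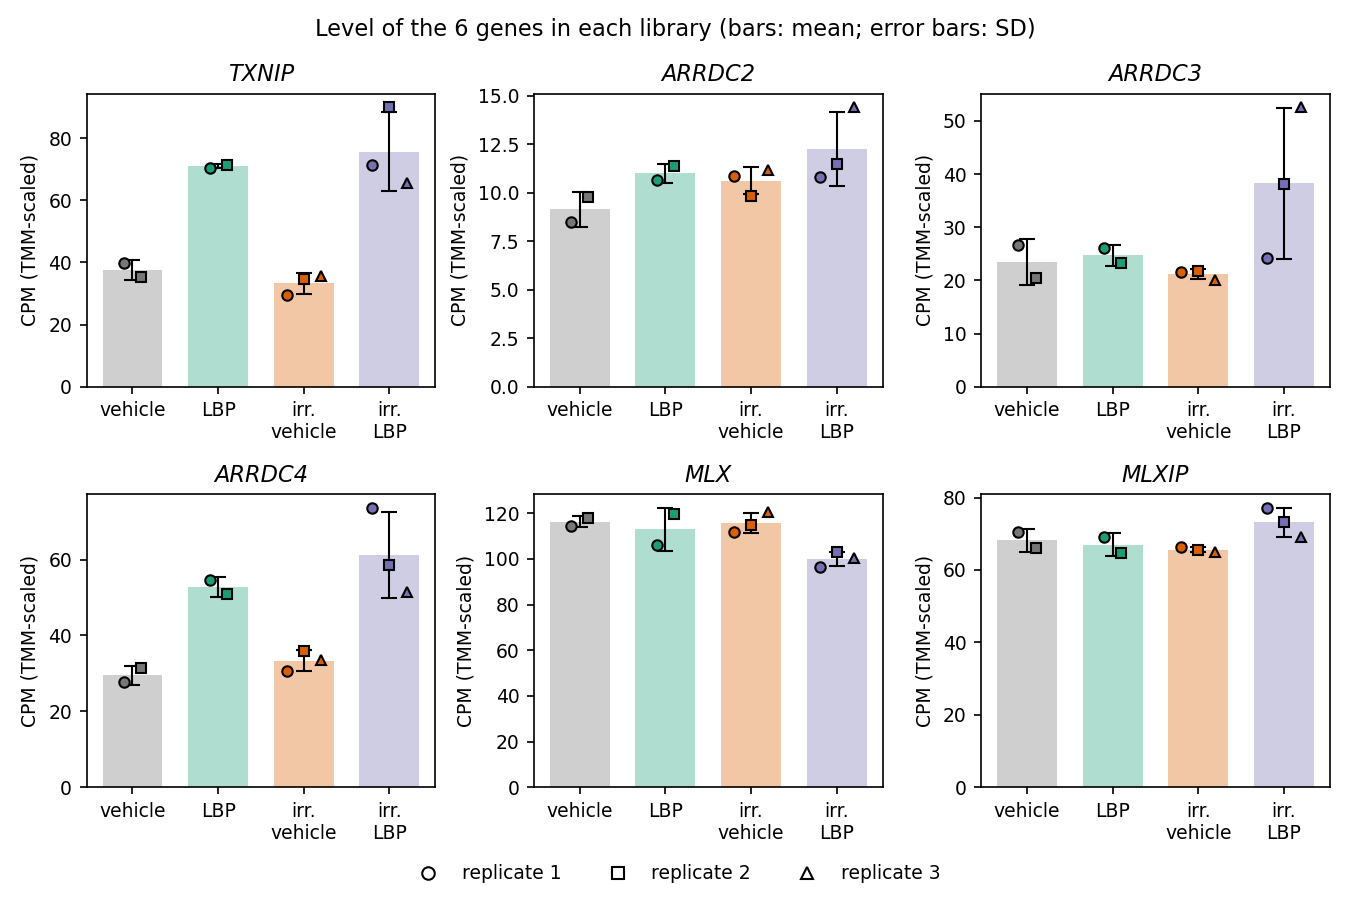
Levels of the 6 genes in each of the 10 libraries by group, in CPM (y axis); points are libraries and bars are group means with SD. TXNIP and ARRDC4 in the LBP libraries sit above all vehicle libraries, and ARRDC3 spreads from 24.2 to 52.5 CPM in irradiated LBP cells.

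ARRDC3, an alpha-arrestin known for its action on beta-adrenergic receptors and integrin beta 4, was called in irradiated cells and not in non-irradiated cells, with a wide spread. It was at 26.6 and 20.5 CPM with vehicle and at 26.1 and 23.3 CPM with LBP, with overlapping groups. After 12 Gy the gene was at 21.5, 21.8 and 20.1 CPM with vehicle and at 24.2, 38.1 and 52.5 CPM with LBP. The irradiated LBP libraries all lay above the irradiated vehicle libraries, but their coefficient of variation was 37.1%. The log2 difference was 0.07 ± 0.26 (-0.49 to 0.63) without radiation and 0.86 ± 0.21 (0.40 to 1.31; 1.81-fold) with it. Without irradiated LBP replicate 3 the latter was 0.55 and no longer called, and without replicate 1 it was 1.10.

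ARRDC2 was the member with the fewest counts, down to 323 in 1 library. It was at 8.501 and 9.79 CPM with vehicle and at 10.6 and 11.4 CPM with LBP. The irradiated libraries were at 10.9, 9.84 and 11.2 CPM with vehicle and at 10.8, 11.5 and 14.4 CPM with LBP, with overlapping groups. The log2 differences, 0.26 ± 0.15 and 0.20 ± 0.12, were not called.

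The transcription factors MLX and MLXIP varied little, with group means spanning 0.22 and 0.15 on the log2 scale beside 1.17 for TXNIP and 1.04 for ARRDC4. MLX was at 115 and 118 CPM with vehicle and at 106 and 119.6 CPM with LBP. In irradiated cells it was at 112, 115 and 121 CPM with vehicle and at 96.6, 103 and 101 CPM with LBP, all 3 below every other library. The log2 difference was -0.04 ± 0.08 without radiation and -0.21 ± 0.06 (-0.35 to -0.07) with it, and was not called. PSMC3IP, whose reads overlap MLX, was at 11.5 to 16.7 CPM in all libraries.

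MLXIP was at 70.5 and 65.9 CPM with vehicle and at 69.2 and 64.8 CPM with LBP. In irradiated cells it was at 66.4, 65.5 and 64.9 CPM with vehicle and at 77.0, 73.4 and 69.0 CPM with LBP, without overlap. The log2 difference was -0.03 ± 0.08 without radiation and 0.16 ± 0.06 (0.01 to 0.30) with it, and was not called. Transcript levels do not show where the MLXIP protein lies in the cell.

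Counted together, 2 of the 6 genes were called in LBP against vehicle (TXNIP and ARRDC4), where 0.804% of all tested features were called. In irradiated LBP against irradiated vehicle 3 of 6 were called (TXNIP, ARRDC3 and ARRDC4), where 4.36% of features were. Groups did not overlap for 3 of 6 genes without radiation, beside 45.5% of all features, and for 5 of 6 with it, beside 27.5%. The median log2 difference of the 6 was 0.168 and 0.53, beside 0.00999 and 0.00509 over all tested features. These contrasts led to the choice of the genes, so nothing is read from the counts.

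In irradiated cells the calls of TXNIP and ARRDC4 held in 19 of 19 alternative settings, with log2 differences of 1.04 to 1.27 and 0.72 to 0.99. Without radiation both were called in 14 of 19. Limma on log2(FPKM + 0.1) with no filter ended both calls (0.85 and 0.77). So did leaving out 1 of the 4 libraries compared, where the lone library of an arm is assumed to vary like the other groups. TXNIP was then at 0.99 without vehicle replicate 1, 0.83 without vehicle replicate 2, 0.92 without LBP replicate 1 and 0.91 without LBP replicate 2. ARRDC4 was at 0.74, 0.93, 0.77 and 0.88 in that order. ARRDC3 in irradiated cells was called in 6 of 19, at 0.55 to 1.10.

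**Figure D3:**
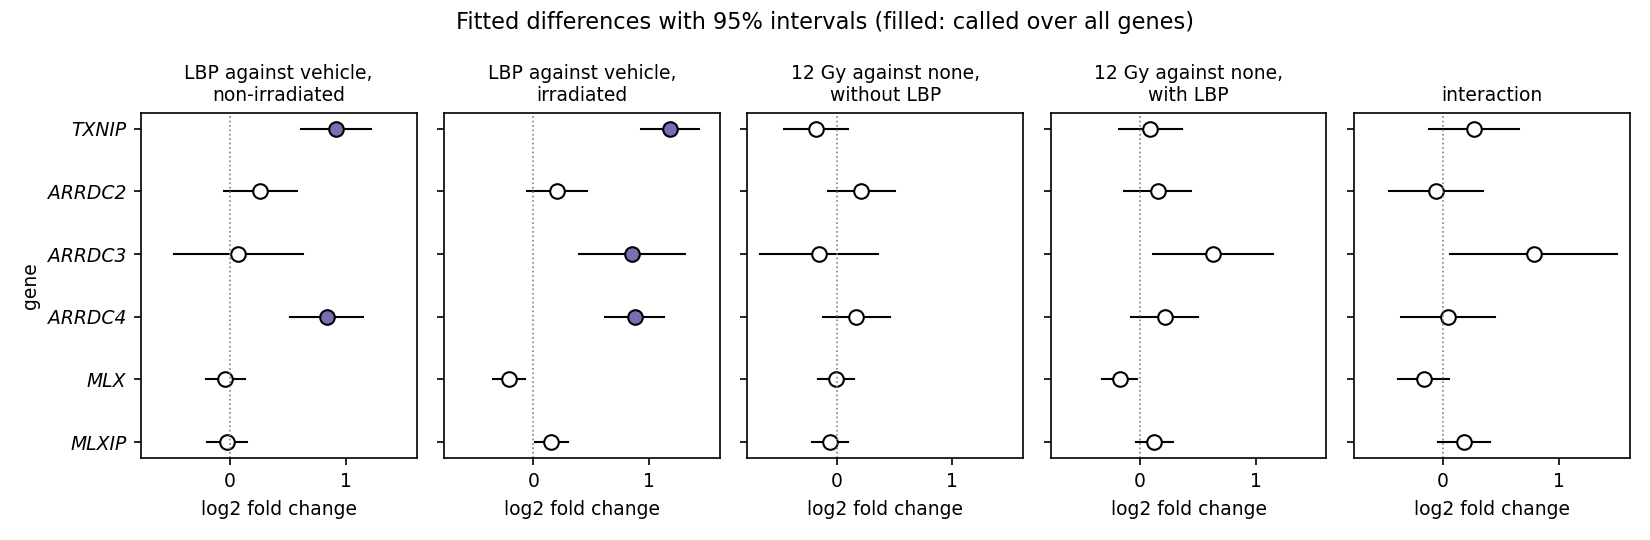
Log2 fold change with its 95% interval (x axis) of each of the 6 genes in the 4 comparisons between groups and the interaction. Filled points were called and open points were not. The LBP intervals of TXNIP and ARRDC4 lie above 0 in both settings, and their radiation and interaction intervals include 0.

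No member was called for radiation at 3 h. In irradiated against non-irradiated vehicle cells 0 of 6 were called, by edgeR or DESeq2, and 0 had an unadjusted p under 0.05, beside 0.439% of features called and 6.91% at that unadjusted p. TXNIP differed by -0.18 ± 0.13 (-0.45 to 0.10), ARRDC3 by -0.15 ± 0.23 and ARRDC4 by 0.17 ± 0.13 on the log2 scale. Only ARRDC2 did not overlap (0.21 ± 0.13), beside 27.6% of all features.

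After LBP, irradiated against non-irradiated cells again gave 0 of 6 calls by edgeR and DESeq2, with 2 at an unadjusted p under 0.05 (ARRDC3 and MLX), beside 0.142% of features called and 13.5% at that unadjusted p. ARRDC3 differed by 0.63 ± 0.24 (0.12 to 1.15), TXNIP by 0.09 ± 0.13 and ARRDC4 by 0.21 ± 0.13. MLX differed by -0.18 ± 0.07 and was the gene whose groups did not overlap, beside 28.0% of features. This comparison shares its irradiated LBP libraries with that of irradiated LBP against irradiated vehicle.

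The difference between the LBP effects with and without radiation was fitted as an interaction, which called 0.0135% of features and 0 of the 6 genes by edgeR or DESeq2. It was 0.27 ± 0.18 (-0.12 to 0.66) for TXNIP and 0.04 ± 0.19 (-0.36 to 0.45) for ARRDC4. For ARRDC3 it was 0.78 ± 0.33 (0.06 to 1.51), the member with an unadjusted p under 0.05, beside 8.2% of all features, and 0.48 without irradiated LBP replicate 3.

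Per length of gene, the order of the 6 group means differed between vehicle and LBP cells and was the same in irradiated vehicle and irradiated LBP cells. MLX led at 43.5 FPKM in vehicle cells and 37.1 in irradiated LBP cells (group means), above TXNIP at 11.4 and 22.8 FPKM. MLXIP (7.28 to 7.80 FPKM) lay above ARRDC4 (6.02 to 6.78) in the vehicle libraries, and the pair overlapped in irradiated vehicle cells, with means of 7.18 and 7.21 FPKM. In both LBP groups ARRDC4 lay above MLXIP, at 10.9 to 15.5 against 7.75 to 8.47 FPKM in irradiated LBP cells. ARRDC3 and ARRDC2 were lowest, at 4.88 and 3.21 FPKM in vehicle cells, and overlapped in irradiated LBP cells.

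MLX stood 4.32 to 6.40 times above MLXIP over all 10 libraries, and TXNIP 1.35 to 2.15 times above ARRDC4. The ratio of TXNIP to TXN, the gene of the thioredoxin that it binds, was 0.0250 and 0.0219 with vehicle and 0.0304 and 0.0311 with LBP. In irradiated cells it was 0.0192, 0.0193 and 0.0198 with vehicle and 0.0323, 0.0484 and 0.0332 with LBP. The ratio was higher with LBP in every library of both settings, though TXN was itself higher.

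**Figure D4:**
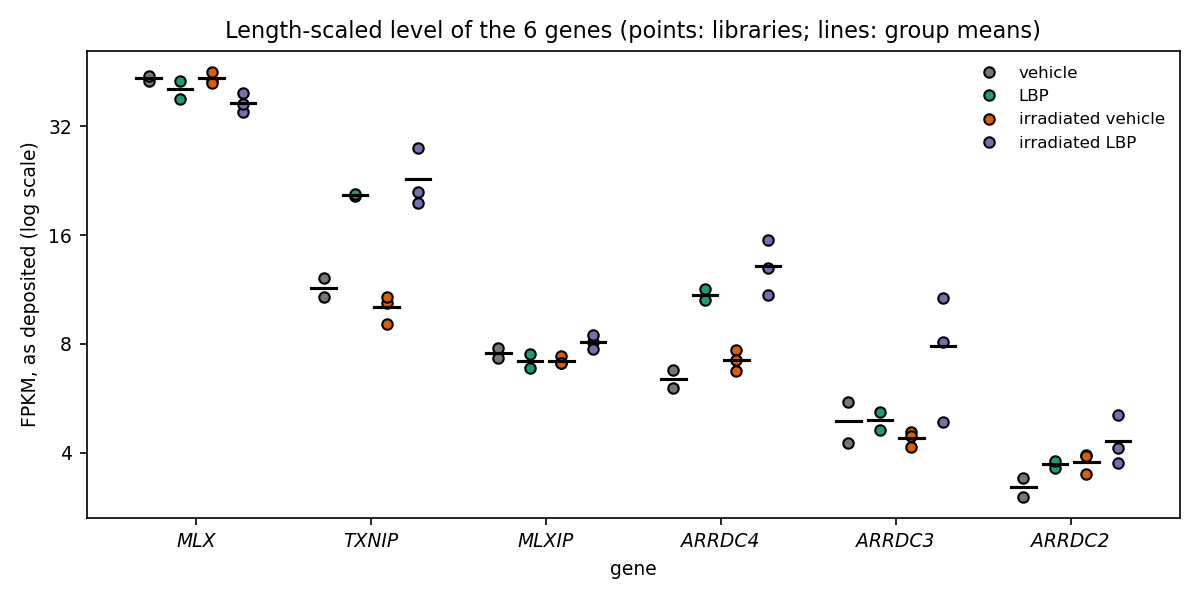
FPKM of the 6 genes on a log axis by group; points are libraries and short lines are group means. Every ARRDC4 library lies above every MLXIP library in both LBP groups, and the pair overlaps in irradiated vehicle cells.

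Beside the 6 genes, 10 lists of related genes (78 genes, 68 tested) were read in the same edgeR fit. In LBP against vehicle 3 of the 68 rose and 0 fell, all in the thioredoxin system, beside 0.804% of all features called. In irradiated LBP against irradiated vehicle 7 rose and 1 fell, beside 4.36% of features called. DESeq2 called 4 and 12 of the list genes in these comparisons, beside 345 and 1162 of all features. The median of the 68 was 0.0346 and 0.143, beside 0.00999 and 0.00509 over all tested features. No list gene was called in either radiation comparison or in the interaction by edgeR, with 9, 23 and 10 of 68 at an unadjusted p under 0.05 and 0, 3 and 0 called by DESeq2. Over all features 6.91%, 13.5% and 8.2% had such an unadjusted p, and DESeq2 called 123, 163 and 16 features.

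Of the thioredoxin system, 3 of 8 tested genes rose without radiation and 2 with it. TXNRD1, the reductase that recharges thioredoxin, was at 230 and 249 CPM with vehicle and 585 and 514 CPM with LBP. In irradiated cells it was at 236, 261 and 255 CPM with vehicle and 676, 413 and 454 CPM with LBP. Its log2 difference was 1.20 ± 0.18 (edgeR adjusted p = 0.0081) without radiation and 1.04 ± 0.15 (adjusted p = 0.0029) with it.

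SRXN1, which repairs overoxidised peroxiredoxins, rose by 0.94 ± 0.12 (edgeR adjusted p = 0.0025) and, in irradiated cells, by 0.82 ± 0.10 (adjusted p = 0.00095). TXN rose by 0.52 ± 0.10 (adjusted p = 0.031) without radiation and stood at 0.24 ± 0.08 (adjusted p = 0.11) with it. The TXN call was lost without vehicle replicate 1 (0.49), vehicle replicate 2 (0.53), LBP replicate 1 (0.50), LBP replicate 2 (0.53) or irradiated vehicle replicate 2 (0.51). The non-irradiated TXNRD1 call was lost without vehicle replicate 1 (1.13), vehicle replicate 2 (1.26) or LBP replicate 1 (1.09), and that of SRXN1 without vehicle replicate 1 (0.87).

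Of the MYC, MAX and MLX network, 2 of 9 genes rose with LBP in irradiated cells, both repressors that pair with MAX or MLX. MXD1 was at 19.6, 23.8 and 23.8 CPM in irradiated vehicle and at 38.0, 29.7 and 67.3 CPM in irradiated LBP libraries, a difference of 1.01 ± 0.24 (edgeR adjusted p = 0.035). MNT differed by 0.55 ± 0.14 (adjusted p = 0.043). MLXIPL, the MLXIP paralogue known as ChREBP, was near the floor of measurement at 0.42 to 1.04 CPM and was not called. MYC and MAX were not called, at -0.12 ± 0.14 and -0.18 ± 0.07 in irradiated cells and at 0.45 ± 0.17 and 0.06 ± 0.08 without radiation.

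Of 9 tested genes regulated by Mondo factors other than TXNIP and ARRDC4, 2 rose in irradiated cells and 0 without radiation. HK2, the hexokinase, differed by 0.35 ± 0.07 (edgeR adjusted p = 0.017), and KLF10, a zinc finger repressor, by 0.81 ± 0.17 (adjusted p = 0.025). PFKFB3, a regulator of glycolysis, was not called, at 0.11. The gene of the glucose transporter GLUT1, SLC2A1, was the 1 of 8 cargo genes that rose, by 0.44 ± 0.07 (adjusted p = 0.0072). It was at 125, 118 and 125 CPM with vehicle and 159, 154 and 184 CPM with LBP in irradiated cells.

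PRKAG2, a subunit of the energy sensor AMPK that phosphorylates TXNIP protein, fell by 0.32 ± 0.07 in irradiated cells (edgeR adjusted p = 0.027), 1 of 5 tested subunits. None of 3 tested other arrestins, 7 NEDD4-family ligases (ITCH, which degrades TXNIP, at 0.06 ± 0.08), 4 TXNIP partners, 7 glucocorticoid genes or 8 FOXO genes was called with LBP in either setting. Among the other arrestins ARRDC1 was at 56.8 CPM in vehicle cells (group mean), above ARRDC2, ARRDC3 and ARRDC4. With LBP it differed by 0.03 ± 0.14 without radiation and -0.001 ± 0.11 with it. DDIT4, which forms a complex with TXNIP, stood at 0.88 ± 0.30 (edgeR adjusted p = 0.12) and TSC22D3, a glucocorticoid target, at 0.91 ± 0.33 (adjusted p = 0.13) in irradiated cells. Without radiation these 2 genes stood at -0.12 ± 0.37 and -0.13 ± 0.40. CDKN1B, also listed as a TXNIP partner, was at -0.14 ± 0.11 in irradiated cells, and FKBP5, also a glucocorticoid target, at 0.04 ± 0.15.

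**Figure D5:**
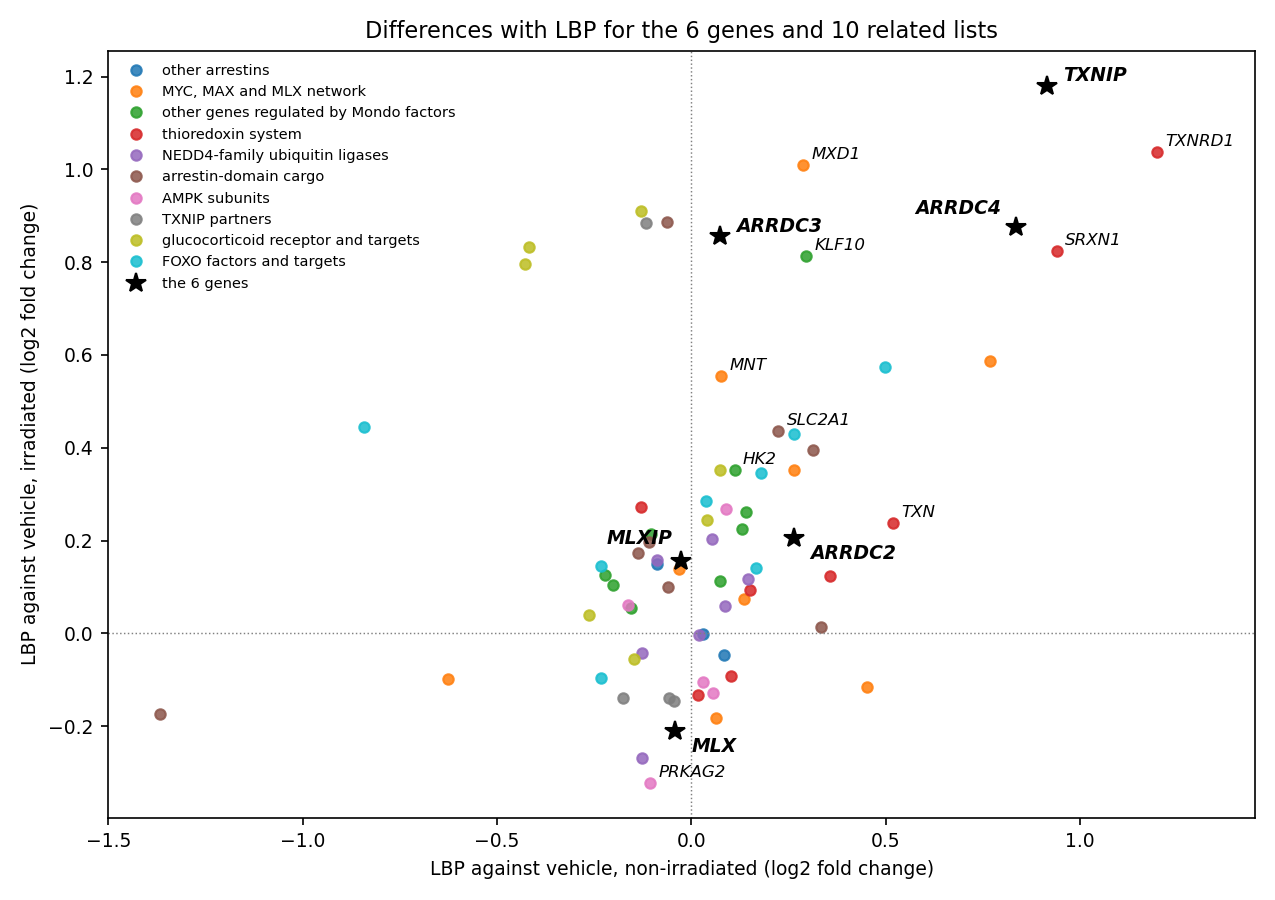
Log2 fold change with LBP in non-irradiated (x axis) and irradiated cells (y axis) for the 6 genes (stars) and the 68 tested genes of the 10 lists (circles, coloured by list). TXNIP, ARRDC4, TXNRD1 and SRXN1 lie at the upper right.

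Irradiated LBP replicate 3 stood apart for several of these genes. DDIT4 was at 116, 147 and 351 CPM and TSC22D3 at 25.1, 32.7 and 81.2 CPM in irradiated LBP replicates 1, 2 and 3. KLF10 was at 54.9, 55.3 and 94.0 CPM in the same order. ARRDC3 and ARRDC2 were also highest there, and TXNIP and ARRDC4 were not. Of the 68 list genes 27 (39.7%) had their highest level in that library, beside 2400 of all 14799 features (16.2%).

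Without that library MXD1 stood at 0.60 and KLF10 at 0.51, both still called, and MNT at 0.38, no longer called. TXNIP was then at 1.27 and ARRDC4 at 0.99, both called. HK2 (0.32), SLC2A1 (0.35), TXNRD1 (1.12), SRXN1 (0.89) and PRKAG2 (-0.35) were also still called without it. Other single libraries ended list calls too. HK2 lost its call without irradiated vehicle replicate 1 (0.32) or 2 (0.34). KLF10 lost it without irradiated vehicle replicate 1 (0.76), 2 (0.81) or 3 (0.86). ARRDC4, TXNRD1 and SRXN1 were highest in irradiated LBP replicate 1. Without that replicate they stood lower, at 0.72, 0.79 and 0.68, and were still called.

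MXD1 lost its call without irradiated vehicle replicate 1 (0.92), 2 (1.05) or 3 (1.06 on the log2 scale), vehicle replicate 1 or vehicle replicate 2 (both 1.00). MNT lost it without those same 5 libraries (0.51 to 0.59) and without irradiated LBP replicate 1 (0.60). PRKAG2 lost it without any single irradiated vehicle library or irradiated LBP replicate 1 or 2 (-0.34 to -0.30). ARRDC3 lost it without any single library other than irradiated LBP replicate 1.

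The genes whose levels over the 10 libraries lay nearest to TXNIP were found by the root mean square difference of centred log2 CPM. They were ALDOC (0.184), FTH1 (0.191), SERPINB3 (0.201), GPAT3 (0.204) and NDRG1 (0.224). ALDOC is a glycolytic aldolase, FTH1 the ferritin heavy chain, GPAT3 an enzyme of glycerolipid synthesis and NDRG1 a stress-responsive gene. Without these filters ARRDC4 itself was the 12th closest of 14798 other features to TXNIP, at 0.243. In that ranking ARRDC3 was 880th, ARRDC2 2033rd, MLXIP 2798th and MLX 10559th.

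For ARRDC4 the nearest after the same filters were SRXN1 (0.104), ZBED9 (0.111), MDGA1 (0.117), CLCF1 (0.128) and GPAT3 (0.134). GPAT3 is on both lists. Each profile covers the same 10 libraries in the same 4 groups, so the measure is a description and says nothing of shared control.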

How the data were processed

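RNA sequencing of 10 HaCaT libraries was analysed. The authors deposited a table of raw counts per gene. They also deposited FPKM, which are scaled by gene length and library size, for those genes. The submitters' processing notes name HISAT2 and GRCh38 without versions; which counter, annotation and strand setting were used is not given in the sources used here. Of counts from 1 to 10, 59.7% were even, so both mates of some pairs may have been counted.

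The test was edgeR 4.0.16 (R 4.3.3): filterByExpr (minimum count 10), TMM scaling and glmQLFit and glmQLFTest with 1 mean for each of the 4 groups in 1 model (6 residual degrees of freedom). The 4 comparisons and the interaction were contrasts, with Benjamini-Hochberg adjustment over 14799 features and calls under 0.05. The fit was tested on simulated data. Alternatives used DESeq2 1.42.0, limma 3.58.1 on log2(FPKM + 0.1) or log2(FPKM + 1), other scalings and filters, a replicate block, and leaving out each library.

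The 6 genes, the lists and the tests were chosen with earlier results of these data known. By the naming rule, genes named from the lists were marked beforehand or called. Called genes not marked were limited to 3 per list in irradiated LBP against irradiated vehicle, and to 2 elsewhere. Not every marked gene is named here. The 5 nearest profiles, after the filters on level and name, were given for members whose group means spanned at least 1 on the log2 scale. P4HA1 and PSMC3IP were added after values were seen. Motifs were searched in RefSeq start windows.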

Additional observations from a re-analysis of the deposited data

How the results depend on the processing

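Over the alternatives, which did not cover P4HA1, no gene named in a comparison reversed a call. Of 564 values of the 6 genes under alternatives 540 kept their side of the threshold, 23 lost a call and 1 gained one; of the 95 whose comparison was called, 72 kept the call. The gain was MLX in irradiated cells, called by DESeq2 (-0.21). The other named genes lost 64 of 247 calls. In irradiated cells ARRDC3, MXD1, MNT and MITF lost theirs with only the 2 groups fitted and with limma in all 3 forms, and KLF10 with the 2 groups and with limma and no filter. TP63 and PRKAG2 lost theirs with limma and no filter, as did TXNRD1 in non-irradiated cells, where TXN lost its call with limma in all 3 forms.

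Counts of called features moved more. LBP against vehicle (119 called) gave 345 with DESeq2 (181 higher, against 80 of 119), 188 with no filter, 278 with only the 2 groups fitted and 48 with limma on log2(FPKM + 0.1) with no filter, and leaving out 1 library gave 38 to 175. Irradiated LBP against irradiated vehicle (645) gave 1162 with DESeq2, 409 with only the 2 groups, 365 and 369 with limma on log2(FPKM + 0.1) and log2(FPKM + 1), 160 with limma and no filter, and 176 to 722 without 1 library. Irradiated against non-irradiated vehicle (65) gave 123, 109, 42, 42 and 26 in that order, and 25 to 75. Irradiated LBP against LBP (21) gave 163 with DESeq2, 45 with no filter, 10 with only the 2 groups, 9, 9 and 8 with limma, and 8 to 51. The interaction (2) gave 16 with DESeq2, 7 with no filter, 0 with limma on log2(FPKM + 1), 5 with limma and no filter, and 0 to 5. The cause was not tested.

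Replicate numbers do not mark a shared culture in the labels. Deviations of same-numbered libraries correlated at -0.161 to 0.11 over 13 pairs, 2 of them over 0.1. In a group of 2 libraries the deviations mirror each other, so these values are not independent and cannot decide on pairing. As the labels name no shared culture, the numbers were not treated as pairs. With the replicate block the 5 tests called 148, 813, 56, 31 and 1 features.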
